A study of Homo sapiens with 13 samples.

Results

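The genes described here are ITGB1, ITGA2, ITGA3, ITGA6, ITGA5 and ITGAV, 6 integrin genes whose surroundings were searched for binding of 4 transcriptional regulators, namely YAP, TAZ, TEAD4 and JUN. The cells were MDA-MB-231, an established human breast cancer line. A peak was counted for a gene when its summit, the base of highest signal, lay within 100 kb of the gene's start on build hg19. This gave 62 of the 50467 deposited peaks, which merged into 35 of 28100 regions when peaks that overlapped by at least 1 bp were joined. This chromatin immunoprecipitation sequencing (ChIP-seq) series has 13 libraries. There are 2 each for YAP, TAZ (antibody to WWTR1, the name of its gene), TEAD4 (antibody labelled TEF-3) and JUN. The other 5 used control immunoglobulin (IgG), 2 of rabbit and 3 of mouse. All 13 came from the same line grown with 10% serum, and the labels name no treatment or genetic change. The authors deposited 1 peak list per factor, so no value below has a spread between replicates, no test was possible, and read depth is unknown. YAP and TAZ were set against rabbit IgG, whereas TEAD4 and JUN were set against mouse IgG, and the read-file names of these pairs of factors carry different run codes. Strength is therefore compared only by a peak's place within its own list. A list of peaks carries no expression values, so neither the identity of the line nor the activity of these genes was checked.

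Integrins are cell surface receptors made of an alpha and a beta subunit that anchor cells to the extracellular matrix and pass force and signals to the cytoskeleton. YAP and TAZ are coactivators that the Hippo kinases restrain and that respond to adhesion and stiffness, and they reach DNA through TEAD proteins such as TEAD4. JUN is a subunit of AP-1, a transcription factor that binds many enhancers in breast cancer cells. ITGB1 encodes the beta subunit shared by many of these receptors. ITGA2 encodes the alpha subunit of a collagen receptor, ITGA3 and ITGA6 those of laminin receptors, ITGA5 that of the main fibronectin receptor and ITGAV that of receptors for vitronectin and other ligands with an RGD motif.

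Peaks lay directly at the gene start in 2 of the 6 genes. At ITGB1 a YAP summit lay 107 bp and a JUN summit 78 bp upstream of the start, and at ITGA5 a JUN summit lay 53 bp downstream of it. The promoters of these genes are shown because they are the only ones of the 6 with a summit within 1 kb. The sequences are those of RefSeq, matched by symbol, on GRCh38.p14, each running from 250 bases before to 50 bases after RefSeq's outermost start of the gene. They are given 5′ to 3′ along the gene, ITGB1 from the minus strand of chr10:32958181-32958480 and ITGA5 from the minus strand of chr12:54419217-54419516. Capitals mark matches to GGAATG, the core letters bound by TEAD proteins, or to TGANTCA, the letters bound by AP-1, on either strand.

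ITGB1: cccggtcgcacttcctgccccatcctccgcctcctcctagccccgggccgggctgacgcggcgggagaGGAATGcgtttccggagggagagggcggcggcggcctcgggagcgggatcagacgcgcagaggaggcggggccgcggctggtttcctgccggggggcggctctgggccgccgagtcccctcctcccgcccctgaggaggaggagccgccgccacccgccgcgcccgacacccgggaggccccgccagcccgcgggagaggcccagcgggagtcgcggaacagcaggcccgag

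ITGA5: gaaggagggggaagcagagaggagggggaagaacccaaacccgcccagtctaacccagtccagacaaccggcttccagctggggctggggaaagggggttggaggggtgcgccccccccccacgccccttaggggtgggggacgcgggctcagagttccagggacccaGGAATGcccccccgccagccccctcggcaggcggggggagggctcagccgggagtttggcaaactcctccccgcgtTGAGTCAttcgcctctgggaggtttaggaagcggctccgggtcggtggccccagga

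The ITGB1 sequence held 1 match to GGAATG, beginning 182 bases before the start, and none to TGANTCA. The ITGA5 sequence held 1 match to GGAATG, beginning 82 bases before the start, and 1 to TGANTCA, as TGAGTCA, beginning 6 bases before it; the matches do not overlap. Of all 35116 promoter sequences of the same length in the table, 14.0% held GGAATG, 7.71% held TGANTCA and 1.45% held both. A RefSeq promoter was matched for 5 of the 6 genes, and the first sequences of ITGA2, ITGA6 and ITGAV held neither motif, nor did the second sequences given for ITGB1, ITGA6 and ITGAV. Summits are placed against hg19 starts and motifs against GRCh38 starts, so their positions were not set against each other.

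Binding sites were denser around these genes than over the lists as a whole. The 6 windows, 1.2 Mb together, held 29.2 regions per Mb, against 9.61 per Mb over the 2923 Mb that the lists span. By factor the windows held 6.67 YAP peaks per Mb (8 peaks) against 2.64 over the YAP list, 10.8 TAZ peaks (13) against 3.35, 7.50 TEAD4 peaks (9) against 2.88 and 26.7 JUN peaks (32) against 8.40. The span runs from the first to the last peak of each chromosome and includes stretches with few genes. The genes were chosen with earlier results of these data known, and the density around other gene starts was not measured here. The difference therefore cannot be read as particular to integrins.

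All 6 windows held JUN, 5 held YAP or TAZ, and 4 held a region with all 4 factors. When the genome was divided into 14635 tiles of 200 kb, the length of a window, 56.9% held a JUN region, 37.1% a region with YAP or TAZ and 20.3% a region with all 4 factors. ITGA3 had 10 regions, ITGB1 and ITGA2 7 each, ITGA5 5, ITGA6 4 and ITGAV 2. Tiles with at least as many regions made up 2.02% of all tiles for the count of ITGA3 and 6.65% for that of ITGB1 and ITGA2. For the counts of ITGA5, ITGA6 and ITGAV these shares were 13.7%, 19.6% and 41.3%. The median tile held 1 region. Tiles also cover stretches with few genes, and tiles around other gene starts were not counted apart.

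**Figure D1:**
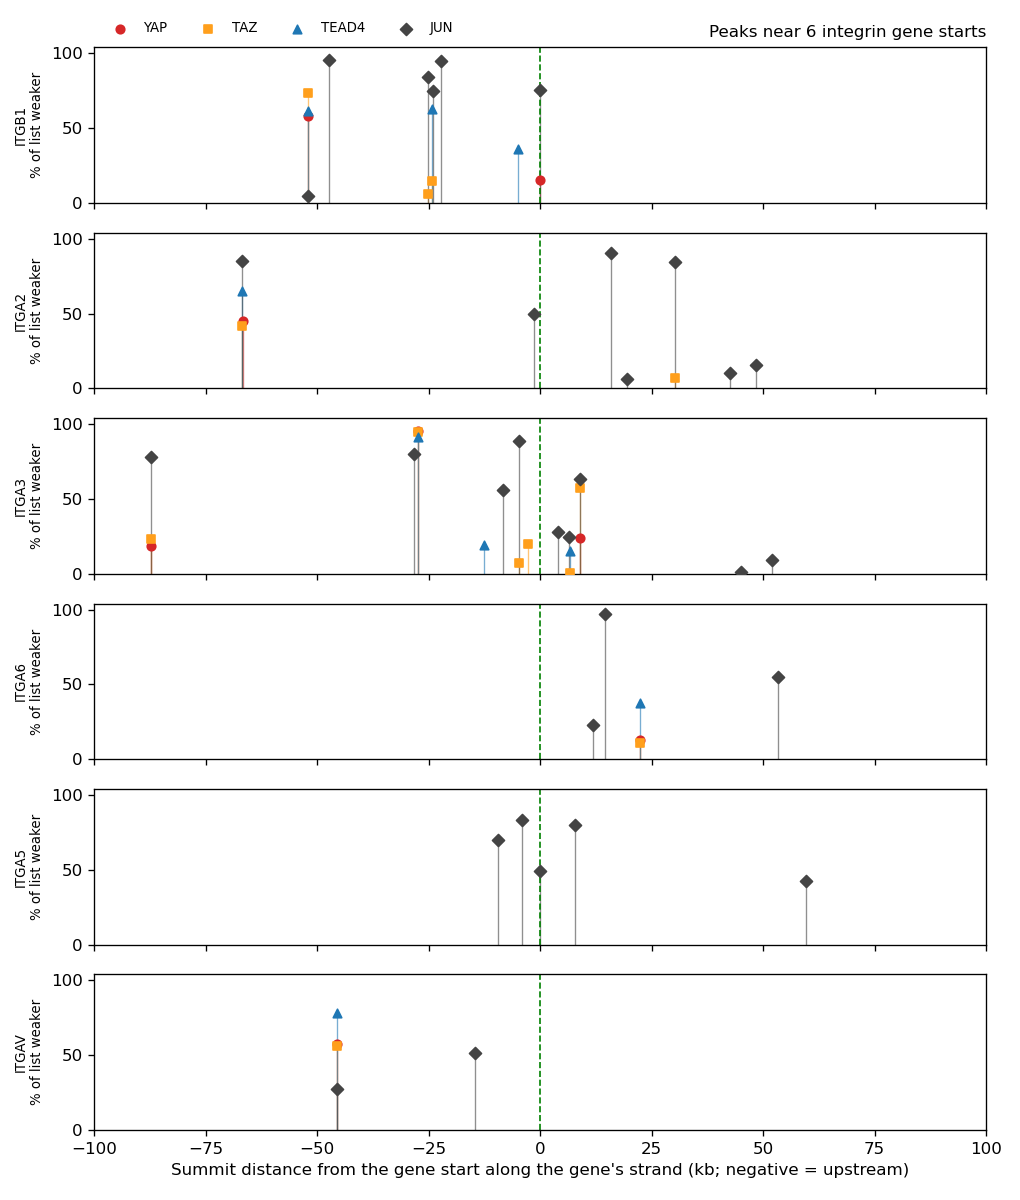
Position and strength of the 62 peaks around the 6 gene starts. The horizontal axis gives summit distance in kb along the gene's strand (negative is upstream, dashed line is the start), the vertical axis the percent of the factor's own list that is less enriched, and symbols mark the factor. ITGB1 and ITGAV have peaks only upstream, ITGA6 only downstream, and ITGA5 has JUN peaks only.

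The mix of factors was close to that of the series. Of the 35 regions, 20 held JUN alone (57.1%, against 58.0% of all regions), 13 held YAP or TAZ (against 36.5% of all regions) and 5 held all 4 factors (14.3%, against 15.2% of all regions). The other 10 regions comprised 3 with TAZ and JUN, 2 with TEAD4 alone, and 1 each with TAZ alone, YAP and JUN, YAP with TAZ and JUN, YAP with TAZ and TEAD4, and TAZ with TEAD4 and JUN. JUN was listed at 7 of the 8 regions with YAP (87.5%, against 76.8% over all regions with YAP). Read the other way, 11 of the 31 regions with JUN held another factor (35.5%, against 33.6% over all regions with JUN). With counts this small, 1 region moves a share by several points.

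**Figure D2:**
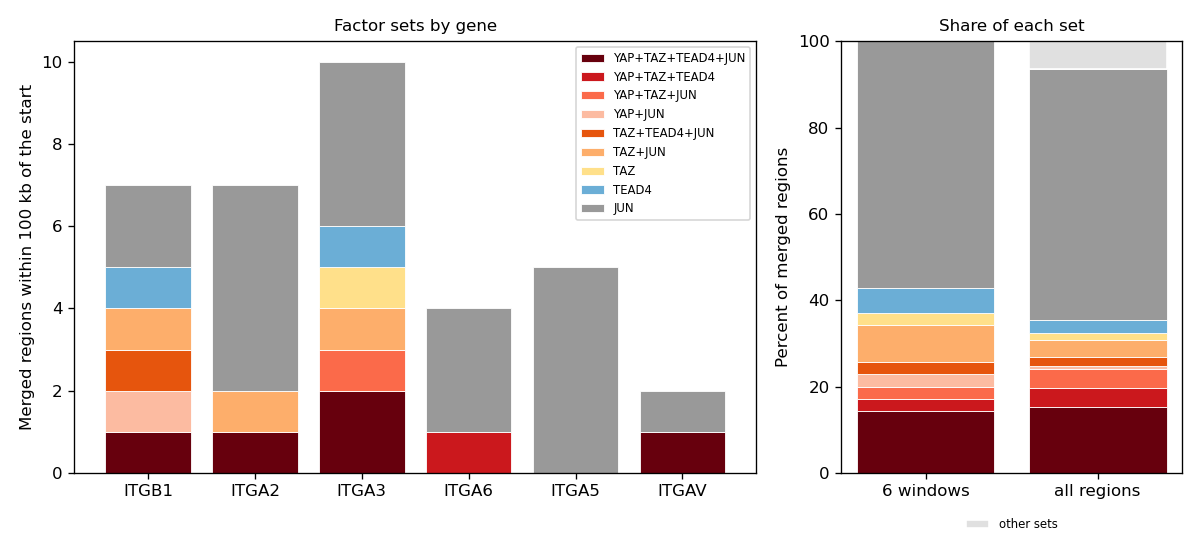
Factor sets of the merged regions. Left, number of regions per gene, coloured by the factors they hold; right, percent of regions in each set for the 6 windows together and for all regions of the series, where pale grey marks sets not seen in the windows. JUN alone makes up all 5 ITGA5 regions and 57.1% of the 35 regions, against 58.0% overall.

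Over the 6 genes together, sites thinned out with distance, but the near sites were unevenly shared. Within 10 kb of the start ITGA3 had 5 regions, ITGA5 4, ITGB1 2, ITGA2 1, and ITGA6 and ITGAV 0. Within 1 kb of a start there were 2 regions, or 16.7 per 100 kb of sequence searched, from 1 to 10 kb 10 regions (9.26 per 100 kb), from 10 to 50 kb 17 (3.54 per 100 kb) and from 50 to 100 kb 6 (1.00 per 100 kb). Regions with all 4 factors lay at 7.78, 27.4, 45.5, 52.1 and 66.7 kb, where only 2 of all 35 regions lay within 1 kb. YAP was listed within 1 kb of 1 start, and TAZ and TEAD4 of none. This band covers the least sequence and held few peaks of any factor, so a missing peak there says little. The farthest summits inside the limit were at 87.2 kb for ITGA3 (JUN, 15.79-fold, in a region with YAP and TAZ) and 66.8 kb for ITGA2 (JUN, 17.55-fold). The nearest beyond it were at 102 kb downstream of ITGA2 (JUN, 6.79-fold) and 108 kb downstream of ITGAV (JUN, 9.67-fold). These folds, like all below, are the authors' enrichment of a peak over IgG.

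Of the peaks near integrin genes, 9 of 13 for TAZ, 5 of 8 for YAP, 4 of 9 for TEAD4 and 13 of 32 for JUN were less enriched than the median of their list. The 8 YAP peaks ranged from 5.47- to 15.81-fold with a median of 6.56, against 7.35 for the list. The median YAP peak stood at the top 65.3% of the list, meaning that 65.3% of YAP peaks were at least as enriched. This place was 59.0% by p-value, 54.8% without ITGA3 or without ITGA6, and 75.8% without ITGA2 or without ITGAV. With narrower windows it was 75.8% within 50 kb and 84.4% within 25 kb. The 13 TAZ peaks ranged from 3.94- to 15.04-fold with a median of 5.48, against 6.96 for the list, and stood at the top 79.9%. That place ranged from 78.4% to 85.0% when 1 gene was left out. The 9 TEAD4 peaks had a median of 8.13-fold, against 7.20 for the list, and stood at the top 38.3%. The 32 JUN peaks had a median of 12.93-fold, against 11.74, and stood at the top 40.1%. The TEAD4 place had no firm side: it was 47.1% by p-value and 50.5% without ITGA2 or without ITGAV, and it crossed to the weaker side with narrower windows, at 62.6% within 50 kb and 64.2% within 25 kb. The JUN place was 33.2% with either of these windows.

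**Figure D3:**
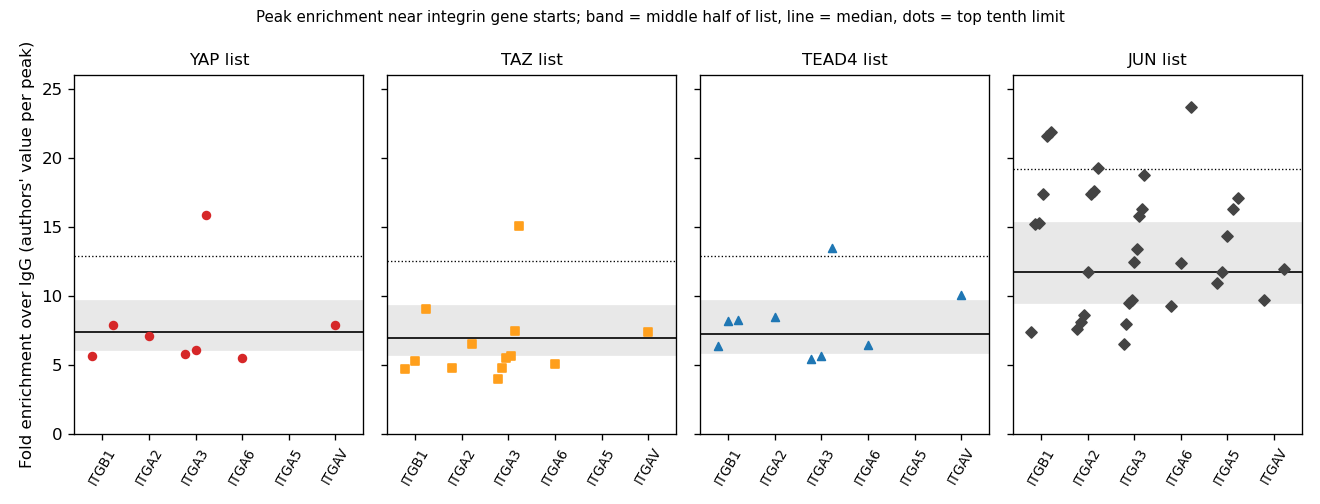
Fold enrichment over IgG of each peak, by gene, with 1 panel per factor. The grey band spans the middle 50% of the factor's whole list, the line is the list median and the dotted line the limit of its top 10%. In the YAP, TAZ and TEAD4 panels only ITGA3 has a peak above the dotted line, and in the JUN panel ITGB1, ITGA2 and ITGA6 do.

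ITGB1, the shared beta subunit, had 7 regions, all upstream. The region farthest out, 52.1 kb upstream (chromosome 10, 33298899 to 33299832), held all 4 factors, with enrichments of 7.90 for YAP (top 41.9%), 9.06 for TAZ (top 26.7%), 8.13 for TEAD4 (top 38.3%) and 7.36 for JUN (top 95.4%). There YAP, TAZ and TEAD4 were above their list medians, and JUN was among the weakest peaks of its list by enrichment. By p-value JUN stood at the top 82.2%. At the other 3 ITGB1 regions that JUN shared, its percent place was higher than those of its partners. The JUN list is much the longest, at 24554 peaks against 8406 for TEAD4, so percent places do not order factors against each other. By rank, JUN was 6243 and TEAD4 3122 at the region 24.1 kb upstream.

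A group of 3 neighbouring ITGB1 regions lay between 22.3 and 25.1 kb upstream. The outermost held TAZ (4.71-fold, top 93.9%) with JUN (17.36-fold, top 15.7%), and the next TAZ (5.25-fold, top 85.0%), TEAD4 (8.25-fold, top 37.1%) and JUN (15.16-fold, top 25.4%). The innermost held JUN alone at 21.54-fold (top 5.23%). Another JUN peak without the other factors, 47.4 kb upstream (chromosome 10, 33294135 to 33295035), was the strongest of the gene at 21.88-fold (top 4.76%). At the start itself YAP had 5.61-fold (top 84.4%) and JUN 15.29-fold (top 24.8%), in a region of 1073 bp (chromosome 10, 33246684 to 33247756). No TAZ or TEAD4 peak was listed there, although a TEAD4 peak alone (6.34-fold, top 64.2%) lay 4.96 kb upstream. This was the only 1 of the 8 YAP peaks without TAZ; over the list 7.52% of YAP peaks shared no region with TAZ.

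ITGA2, of the collagen receptor, had 7 regions, and JUN was in every one. YAP and TEAD4 were listed at 1 of them, 66.7 kb upstream (chromosome 5, 52218171 to 52218894), which held all 4 factors. YAP stood there at 7.08-fold (top 54.8%), TAZ at 6.49-fold (top 58.0%), TEAD4 at 8.43-fold (top 35.1%) and JUN at 17.55-fold (top 14.9%). In the RefSeq order the protein-coding gene next to ITGA2 on this side is ITGA1, which encodes the alpha subunit of another collagen receptor. Whether the site lies between the genes or within ITGA1 was not checked. The lists do not tell which gene a distant site acts on.

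Nearest to the ITGA2 start was a JUN peak 1.48 kb upstream (11.71-fold, top 50.3%). Downstream of the start, 5 JUN peaks lay between 15.8 and 48.4 kb. The first was the strongest, at 19.26-fold (top 9.75%; chromosome 5, 52300547 to 52301249). The one at 30.2 kb reached 17.35-fold and overlapped a TAZ peak of 4.78-fold (top 92.9%). The other 3 lay between 7.58- and 8.62-fold, low in the JUN list by enrichment (top 84.2% to top 93.9%). By p-value the peak of 7.58-fold, at 19.6 kb, stood at the top 59.1%, and the others at the top 89.6% and 83.4%.

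ITGA3, of a laminin receptor, had the most regions and the strongest YAP, TAZ and TEAD4 peaks of the 6 genes. These 3 peaks shared a region 27.4 kb upstream (chromosome 17, 48104097 to 48106800), with 15.81-fold for YAP (rank 370 of 7709, top 4.80%), 15.04-fold for TAZ (rank 529 of 9798, top 5.40%) and 13.43-fold for TEAD4 (rank 729 of 8406, top 8.67%). Their summits fell within 12 bp of each other. JUN was in this region too, at 16.30-fold (top 19.8%), but its summit lay between 766 and 778 bp from the other 3. Of all 4284 regions with the 4 factors, 2.89% had summits spread over more than 700 bp.

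The other ITGA3 region with 4 factors, 7.78 kb downstream (chromosome 17, 48139423 to 48142724), was a chain of 2 sites. At 8.91 kb YAP (6.04-fold, top 75.8%) lay with TAZ (7.46-fold, top 42.6%) and JUN (13.40-fold, top 36.4%), their summits within 29 bp. Nearer the start, at 6.66 kb, TEAD4 (5.43-fold, top 84.5%) lay 13 bp from the weakest TAZ peak of the 6 genes (3.94-fold, top 99.4%) and 159 bp from a JUN peak. The YAP and TEAD4 summits were 2248 bp apart. Over the series, 3.62% of the 4-factor regions held more than 1 peak of a list.

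At 87.2 kb upstream of ITGA3, YAP (5.75-fold, top 81.5%), TAZ (5.62-fold, top 76.9%) and JUN (15.79-fold, top 22.2%) had summits within 25 bp. In the RefSeq order the protein-coding gene next to ITGA3 on that side is DLX3, a homeobox gene. Where this site lies relative to DLX3 or genes beyond it was not checked. The peak nearest to the start was TAZ alone, 2.70 kb upstream (5.48-fold, top 79.9%), and 4.80 kb upstream TAZ (4.77-fold, top 92.9%) shared a region with the strongest JUN peak of the gene (18.77-fold, rank 2705 of 24554). TEAD4 alone was listed 12.5 kb upstream (5.61-fold, top 80.7%). JUN alone occupied 4 further sites, from 6.49- to 12.46-fold.

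ITGA6, of the other laminin receptor, had 4 regions, all downstream of the start. It had the most enriched JUN peak of the 6 windows, 14.6 kb downstream (chromosome 2, 173306522 to 173307671), at 23.70-fold (top 2.76%), with no YAP, TAZ or TEAD4 listed. At 22.5 kb the reverse was seen: YAP (5.47-fold, top 86.9%), TAZ (5.02-fold, top 89.0%) and TEAD4 (6.42-fold, top 62.6%) shared a region without JUN (chromosome 2, 173314531 to 173315187). This was the only one of the 13 regions with YAP or TAZ, apart from the lone TAZ peak of ITGA3, that lacked JUN. By p-value the YAP peak there ranked 7667 of 7709, close to the end of the list. The remaining JUN peaks, at 11.9 and 53.4 kb, had 9.27- and 12.33-fold.

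ITGA5, of the fibronectin receptor, had JUN alone at all of its 5 regions. The JUN peak at the start (chromosome 12, 54812778 to 54813546) had 11.68-fold (top 50.6%). Upstream, peaks of 17.09-fold (top 16.6%) at 4.11 kb and 14.35-fold (top 30.1%) at 9.46 kb were stronger. Downstream, the peak at 7.73 kb had 16.28-fold (top 19.9%) and that at 59.6 kb 10.92-fold (top 57.7%). A YAP, TAZ or TEAD4 peak too weak to enter the lists cannot be told apart from none. With each list cut to its 7709 strongest peaks by p-value, the length of the YAP list, no ITGA5 peak was left. By fold enrichment, 3 of the 5 stood within the first 7709 of the JUN list, at ranks 4075, 4893 and 7390.

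ITGAV, of the vitronectin receptor, had the fewest sites. At 45.5 kb upstream (chromosome 2, 187408899 to 187409475) all 4 factors were listed, with 7.84-fold for YAP (top 42.8%), 7.39-fold for TAZ (top 43.6%), 10.02-fold for TEAD4 (top 22.1%) and 9.65-fold for JUN (top 72.5%). By enrichment YAP, TAZ and TEAD4 were above their list medians and JUN below its own, as at the 52.1-kb site of ITGB1. By p-value the likeness was lost, since YAP (top 59.2%) and TAZ (top 58.3%) at ITGAV fell below their list medians, whereas at the ITGB1 site they stood at the top 41.7% and 28.8%. The other site held JUN alone, 14.5 kb upstream, at 11.91-fold (top 48.6%).

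Where factors shared a region, their summits were mostly close. In 10 of the 12 regions with 2 or more factors all summits fell within 200 bp, and both exceptions were at ITGA3. At the 4-factor region of ITGB1 the summits spanned 21 bp, at that of ITGA2 31 bp and at that of ITGAV 52 bp. Over the 5 regions with 4 factors the median span was 52 bp, against 48 bp over all 4284. With so few regions this median is loose: it was 778 bp with windows of 50 kb, 415 bp without ITGB1 or without ITGA2, 404.5 bp without ITGAV and 31 bp without ITGA3. Because of the ITGA3 exceptions, the count of 5 fell to 3 when peaks were narrowed to 200 bp around the summit, and then ITGB1, ITGA2 and ITGAV had 1 each.

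**Figure D4:**
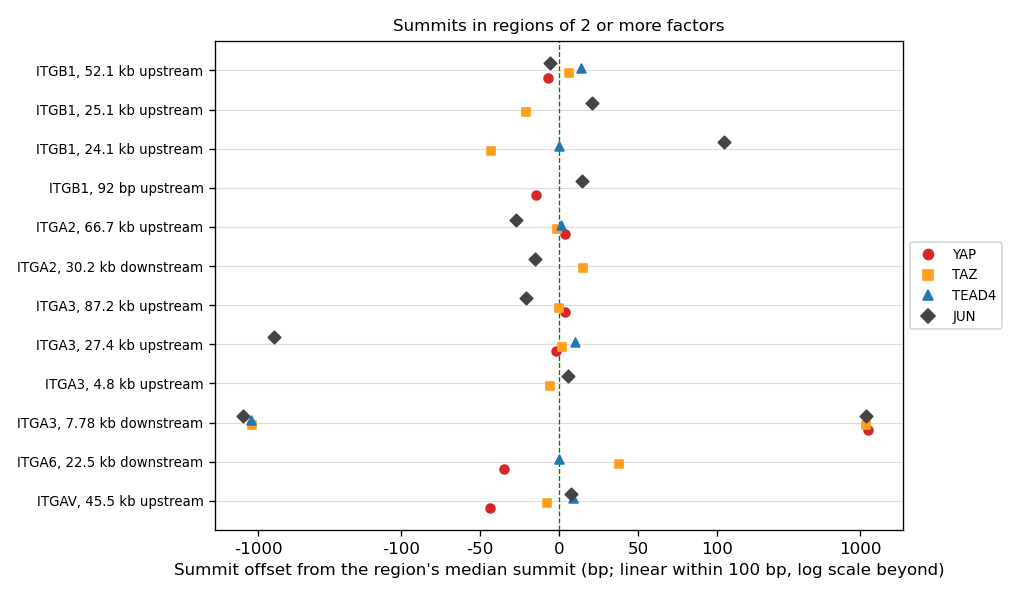
Summits in the 12 regions with 2 or more factors. Each row is a region, named by gene and distance from the start, and the horizontal axis gives the summit's offset in bp from the median summit of the region (linear within 100 bp, logarithmic beyond). Only in the 2 wide ITGA3 regions, at 27.4 kb upstream and 7.78 kb downstream, do summits lie more than 200 bp apart.

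TAZ was listed without YAP at 5 of its 13 peaks, at ITGB1, ITGA2 and ITGA3, against 27.0% of the whole TAZ list. These 5 peaks had enrichments of 4.71- to 5.48-fold, and all were in the weakest 25% of the TAZ list by enrichment, 4 of them also by p-value. Of the 8 TAZ peaks near integrins in that part of the list, 5 lacked YAP, and of the 5 stronger ones 0 did. The weakest of the 8, at 3.94-fold near ITGA3, counted as with YAP only because a wide JUN peak chained it to the YAP site. Its summit lay 2235 bp from the YAP summit. The TAZ list as a whole showed the same direction, with YAP missing at 55.9% of its weakest 25% and at 17.3% of the rest. The YAP list is the shorter one, so whether YAP is absent from these sites or below its listing limit was not tested.

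The most enriched JUN peaks near integrin genes stood without the other factors, though this depended on the measure. Of the 32 JUN peaks, 4 were in the top 10% of the JUN list, those at ITGA6 (14.6 kb), ITGB1 (47.4 and 22.3 kb) and ITGA2 (15.8 kb), and all 4 were JUN alone, where 42.6% of the top 10% of the whole list were. Ranked by p-value, 6 JUN peaks were in the top 10% and 4 of these were JUN alone, where 37.5% of the top 10% of the whole list were; the added ones were the wide ITGA3 peaks at 4.80 and 28.2 kb upstream, both in regions with TAZ. The median enrichments ran the other way: the 12 JUN peaks shared with another factor had a median of 15.54-fold (7.36 to 18.77), against 11.81-fold (6.49 to 23.70) for the 20 alone. In the whole JUN list these medians were 13.47-fold for shared and 10.99-fold for lone peaks. The ranges of the shared and lone peaks overlapped over most of their length.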

How the data were processed

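Cross-linked, sonicated chromatin of MDA-MB-231 was immunoprecipitated and sequenced, per the labels. The submitters' processing notes name build hg19 and, without saying what each did, MACS2 2.0.10, SAMtools, Bowtie 0.12.7 and CASAVA. Per the labels, peaks were called within the IDR framework, which keeps peaks that recur between replicates, against pooled IgG; the labels give an IDR value of 0.01. The sources used here do not say how replicates were combined. Each deposited peak carries a fold enrichment over IgG (a ratio), a −log10 p-value and a summit offset (another deposited value).

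Here, Python 3.11.15 with pandas 2.3.3 assigned peaks to genes by summit distance, merged peaks overlapping by at least 1 bp, and ranked peaks within each list, ties sharing the lower place. The distance of a region is the median over its summits. The merging was tested on simulated peaks of equal width, with at most 1 per factor at well-separated sites. Wide or chained peaks were not simulated. Libraries were grouped by the factor in their titles. No test was run. The genes, the 100-kb rule and the lists were chosen with earlier results of these data known; for each gene the text names the nearest region, those with all 4 factors and the most enriched peaks, and here most others too. Gene starts on hg19 were given for these 6 genes only, so other integrin or adhesion genes were not analysed here. RefSeq's gene order and promoters are on GRCh38.p14 and were matched by symbol. Alternatives changed the window, the list length, the overlap rule, the strength measure and the genes included.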

Additional observations from a re-analysis of the deposited data

How the results depend on the processing

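Across 13 results and 133 alternative values, 102 stayed within 1.5 times of the count or within the interval of the median, and 31 moved. For medians of few peaks that interval is wide and hides large shifts: the TEAD4 place in its list, top 38.3%, turned to the weaker side at 62.6% with 50 kb and 64.2% with 25 kb, and the summit span of 52 bp became 778 bp with 50 kb. The 62 peaks became 32 with windows of 25 kb. With lists cut by p-value, they became 28 in the stronger 50% of each list and 36 with every list cut to the shortest. Leaving out 1 gene gave 41 (without ITGA3) to 57. The 5 regions with all 4 factors became 3 with windows of 50 kb, 1 with 25 kb, 1 with the stronger 50% of each list, 2 with lists cut to the shortest, 3 with peaks narrowed to 200 bp and 3 with summits within 200 bp; leaving out 1 gene gave 3 (without ITGA3) to 5. The 4 genes with such a region became 2 with 50 kb, 1 with 25 kb, 1 with the stronger 50% and 2 with lists cut to the shortest. A shorter window or list can only lower these counts. The count of windows with 4 factors thus includes weaker peaks and distant sites, but its fall is not read as particular to these genes. The 20.3% of tiles with such a region was not recounted under the same cuts, so the count and this share were not compared there. No paired analysis was possible because each factor has 1 list, without separate replicate values, so no replicate could be left out either. What depth limits is unknown here.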
